A study of Saccharomyces cerevisiae with 6 samples.

Results

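The genes described here are the 34 Saccharomyces cerevisiae genes of sulfate assimilation and of methionine, cysteine and S-adenosylmethionine metabolism. They were chosen by symbol as genes of the known pathway, and the choice was made with earlier results of these data known. The platform annotation gave each of the 34 a probe set of its own, and they were read among 5449 genes tested. Expression was measured on 6 Affymetrix yeast arrays. The evolved strains 62A and 62C had 1 array each, 62B had 2, and 2 came from the unevolved wild type CEN.PK113-7D, called the reference. The 3 evolved strains share the CEN.PK113-7D background and had been adapted to galactose. All cultures, evolved and reference, were grown on minimal medium with glucose, in aerobic batch fermenters held at pH 5.0, with RNA taken in the middle of exponential growth. The labels do not say whether arrays of the same strain came from separate cultures, or whether an evolved strain is a single clone, so p-values measure only the spread between these arrays and strains, which may be technical.

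Yeast growing without supplied methionine takes up sulfate, activates it with ATP, reduces it to sulfite and then to sulfide, and joins the sulfide to O-acetylhomoserine to make homocysteine. Homocysteine is methylated to methionine, which feeds S-adenosylmethionine, or is turned into cysteine through cystathionine. Most genes of the route are switched on together by the activator Met4, which is brought to promoters by Cbf1, Met28, Met31 and Met32 and is restrained, when cysteine is plentiful, by a ubiquitin ligase that contains Met30.

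Values are the authors' RMA values on the log2 scale, on which a difference of 1 is a 2-fold difference. All 34 probe sets had means above the background of 5.07, taken from probe sets of another yeast species on the same arrays, and the lowest value of any of them on any array was 6.20. Between paired arrays the members differed by at most 0.19 in 62B and 0.27 in the reference. The 6 array medians ranged from 7.30 to 7.34. The arrays carried the profile of a haploid of a mating type, as known for this strain: MFA1, the a-factor gene, lay between 8.36 and 10.46, and MF(ALPHA)1, the alpha-factor gene, between 5.09 and 5.53. RNA integrity was read from 8 control genes as the 3' minus 5' log2 difference, which was 1.89 on 62A, 2.01 and 2.05 on 62B, 1.73 on 62C, and 1.90 and 1.84 on the reference. A separate ACT1 pair gave 1.49 on 62A, 1.58 and 1.73 on 62B, 1.41 on 62C, and 1.40 and 1.27 on the reference. The part of RNA integrity in the results below was not tested.

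For 31 of the 34 members the mean change over the evolved strains was below 0, mostly by small amounts. The median change was −0.21 over the members and −0.03 over all genes, whose share below 0 was not counted. For 22, or 64.7%, every evolved array lay below both reference arrays, against 27.4% of all genes. SUL1, for a sulfate permease, was the 1 member that passed the test over the strains, at 0.389 of the reference level. Within single strains, genes for the reduction of sulfate were called lower by less than 2-fold, 7 of 8 in 62A, 5 in 62B and 7 in 62C, where 14.9%, 21.3% and 23.3% of all genes were called lower. In 62B, SAM3, STR3 and MUP3 were the 3 members called higher than in the reference, or 8.82%, against 20.1% of all genes. Set against the mean of 62A and 62C, 62B was called higher for 18 members, or 52.9%, against 20.3% of all genes. The counts over members and over all genes both fell when 1 of the 62B arrays was left out.

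Each evolved strain was first treated as 1 sample, and 62A, the mean of the 62B arrays and 62C were compared with the 2 reference arrays in limma, with Benjamini-Hochberg adjustment over all 5449 genes and a threshold of 0.05. By this test 1 of the 34 members, SUL1, was lower, or 2.94%, close to the 2.79% of all genes called lower. None was called higher, where 1.96% of all genes were. At an unadjusted p under 0.05, 18 of the 34 members were lower and 0 were higher, where 17.6% of all genes were lower and 11.0% higher. The median change of the members was −0.21, against −0.03 over all genes tested. Changes were below 0 for 31 of the 34, and the share of all genes below 0 was not counted. For 22 members, or 64.7%, every evolved array lay below both reference arrays, which held for 27.4% of all genes. The opposite order, every evolved array above both reference arrays, was seen for 0 members and for 18.2% of all genes.

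The evolved strains were not alike in these genes, and the class test counts their spread as error. With 62B left out, 62A and 62C together against the reference gave 17 of 34 members called lower, or 50.0%, against 14.8% of all genes. Those 17 held 7 of the 8 sulfate reduction genes, and among them MET8 was lower by 0.72 on the log2 scale (−0.72 ± 0.06, SE, limma adjusted p = 0.00188) and MET1 had a change of −0.67 ± 0.09. With 62A or 62C left out instead, 1 member was called lower, as in the full test. Over all genes 3 were then called lower without 62A and 40 without 62C. The cause of these shifts was not tested. Without either reference array limma called 0 members and 0 genes in the full comparison of the class, so the call on SUL1 needed both reference arrays.

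In a second fit, which gave each strain its own term, 17 members were lower and 1 higher in 62A, 17 lower and 3 higher in 62B, and 23 lower and 0 higher in 62C. As shares, 50% of members were lower in 62A against 14.9% of all genes, 50% in 62B against 21.3%, and 67.6% in 62C against 23.3%. The shares higher were 2.94%, 8.82% and 0%, against 10.0%, 20.1% and 14.7% of all genes. Median changes of the members were −0.20 in 62A, −0.13 in 62B and −0.28 in 62C, and those of all genes were −0.04, −0.01 and −0.04. The 3 comparisons share the reference arrays. Having no replicate, 62A and 62C borrow their spread from the 62B and reference pairs. Without either 62B array, 7 members were called lower in 62B, where 10.9% and 11.5% of all genes were, without the first and the second array.

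**Figure D1:**
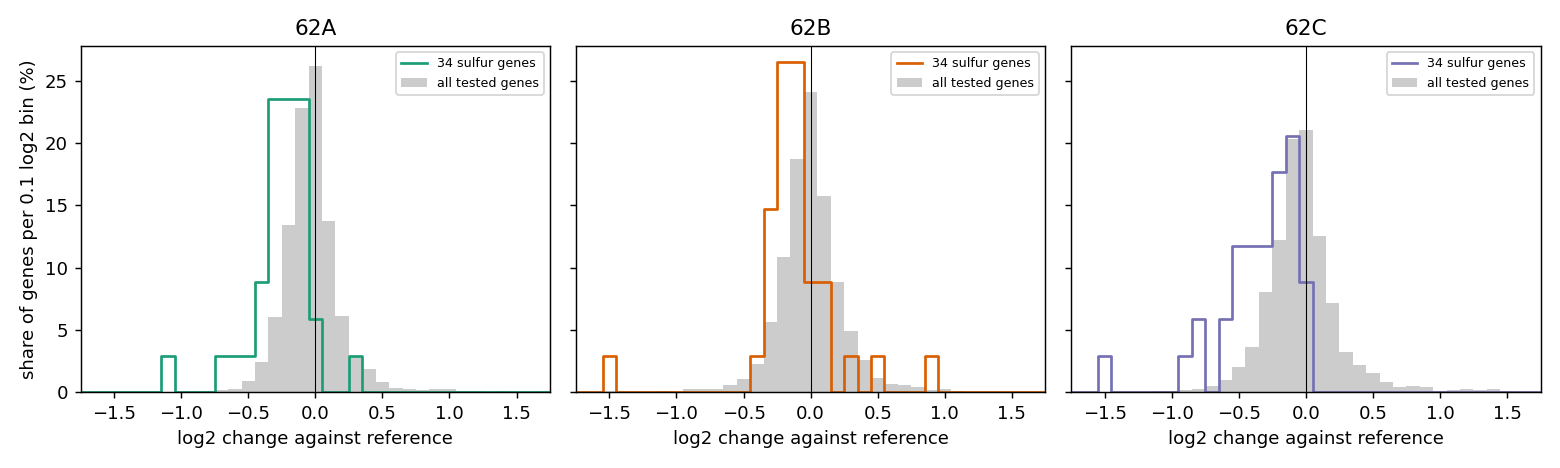
Distribution of log2 changes against the reference in 62A, 62B and 62C, as the percentage of genes in each bin of 0.1; grey bars are all 5449 tested genes and the coloured outline is the 34 sulfur genes. The members lie mostly left of 0, with medians of −0.20, −0.13 and −0.28, SUL1 is the isolated step at the far left, and genes beyond the horizontal range are not drawn.

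Of the 6 uptake genes, 4 were lower and 1 higher in 62A, 1 lower and 2 higher in 62B, and 4 lower and 0 higher in 62C. Of all genes, 14.9%, 21.3% and 23.3% were lower in 62A, 62B and 62C, and 10.0%, 20.1% and 14.7% higher. SUL1 (YBR294W) and SUL2 (YLR092W) encode the sulfate permeases of the plasma membrane. SUL1 had values of 10.47 and 10.33 on the reference arrays, 9.29 on 62A, 8.91 and 8.87 on 62B and 8.93 on 62C. All 4 evolved arrays were far below both reference arrays, with a gap larger than the difference within either pair. Its change was −1.36 ± 0.13 (SE, 3 strains against 2 reference arrays, limma adjusted p = 0.0329), and only 1 of the 5449 genes had a lower change. It was −1.11 ± 0.07 in 62A, −1.51 ± 0.06 in 62B and −1.46 ± 0.07 in 62C, which are levels of 0.463, 0.351 and 0.362 of the reference (limma adjusted p = 8.66e-06, 3.18e-07 and 6.31e-07). The class call was lost without either reference array, with a change of −1.29 (adjusted p = 0.233) without reference 1 and −1.43 (adjusted p = 0.345) without reference 2.

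For SUL2 the change was −0.20 ± 0.09 over the strains (limma adjusted p = 0.211), and it was called lower in 62A (−0.24 ± 0.06) and 62C (−0.30 ± 0.06), while 62B had a change of −0.04 ± 0.05 that was not called. The 62A call had an adjusted p = 0.0557 without either 62B array. The difference in change between these permease genes was not tested.

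MUP1 (YGR055W) encodes the high-affinity methionine permease. Its values were 8.78 and 8.91 on the reference arrays, 8.34 on 62A, 8.75 and 8.67 on 62B, and 7.90 on 62C. Strain 62C was lowest and 62A next, and the 62B arrays lay just under the reference. Its changes were −0.50 ± 0.07 in 62A and −0.94 ± 0.07 in 62C, both called, and −0.13 ± 0.06 in 62B (limma adjusted p = 0.00138, 1.3e-05 and 0.1). Over the 3 strains the change was −0.53 ± 0.23, which did not pass.

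MUP3, the low-affinity methionine permease gene, was higher in 62B alone among the single-strain calls (0.34 ± 0.05, limma adjusted p = 0.000429), with changes of −0.07 in 62A and −0.12 in 62C, and 0.05 ± 0.15 over the strains. The direct test of 62B against the other evolved strains is given below.

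SAM3 and MMP1 encode permeases for S-adenosylmethionine and S-methylmethionine. SAM3 (YPL274W) had 8.31 and 8.20 on the reference arrays, 8.60 on 62A, 9.14 and 9.12 on 62B, and 8.26 on 62C. Both 62B arrays were above all others, 62A lay between them and the reference, and 62C lay between the reference arrays. The changes were 0.88 ± 0.05 in 62B (1.84-fold higher, limma adjusted p = 4.31e-06), 0.34 ± 0.06 in 62A (adjusted p = 0.00535) and 0.01 ± 0.06 in 62C, with 0.41 ± 0.25 over the strains, which did not pass.

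MMP1 (YLL061W) had 7.42 and 7.43 on the reference arrays, 7.16 on 62A, 7.27 and 7.40 on 62B, and 6.83 on 62C. Here 62C was well below the rest, and one 62B array came within a few hundredths of the reference. It was lower in 62C (−0.60 ± 0.07, limma adjusted p = 0.000158) and in 62A (−0.27 ± 0.07), and its change of −0.09 in 62B and of −0.32 ± 0.15 over the strains did not pass.

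**Figure D2:**
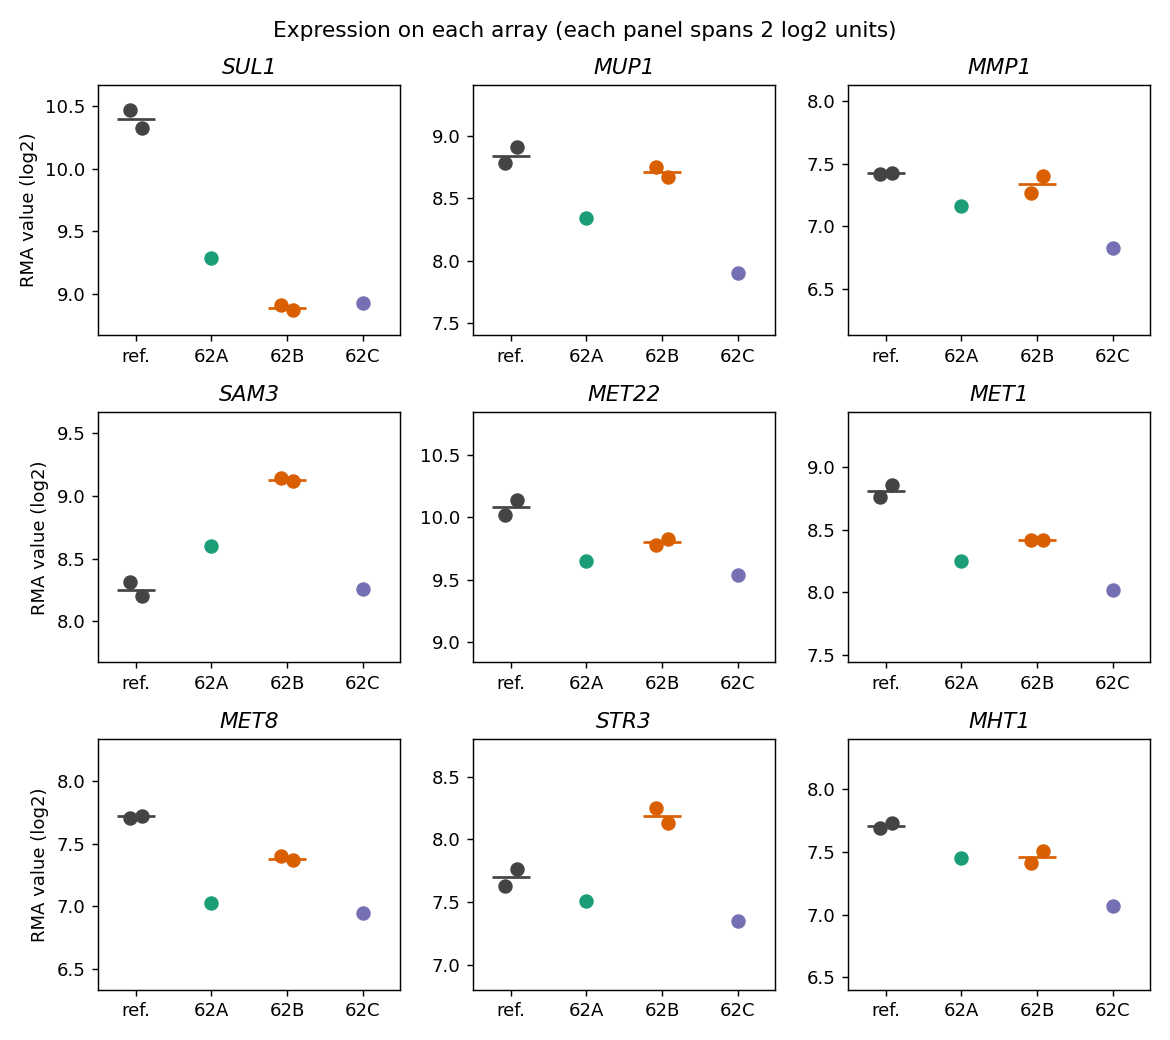
RMA values (log2) on each array for the 9 members with the largest called changes or with calls in opposite directions; each point is 1 array, horizontal lines are means of the paired arrays of the reference and of 62B, and every panel spans 2 log2 units. SUL1 falls from above 10.3 on the reference arrays to below 9.3 on the evolved arrays, and SAM3 and STR3 are highest on 62B. All panels but those of SUL1 and SAM3 are lowest on 62C.

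The 8 genes that turn sulfate into sulfide, counting those for siroheme, the cofactor of sulfite reductase, and for disposal of the phosphoadenosine by-product, had a median change of −0.33 over the strains. Of the 8, 7 were called lower in 62A, 5 in 62B and 7 in 62C, and 0 were called higher in any of the 3 strains. The shares of all genes called lower were 14.9%, 21.3% and 23.3%, and those called higher were 10.0%, 20.1% and 14.7%. MET8 and MET1, both for siroheme synthesis, had the largest changes of these genes in all 3 strains.

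MET8 (YBR213W) had 7.71 and 7.72 on the reference arrays, 7.03 on 62A, 7.40 and 7.37 on 62B, and 6.95 on 62C. The reference arrays were almost equal, 62A and 62C were farthest below them, and 62B lay midway. Its changes were −0.68 ± 0.06, −0.33 ± 0.05 and −0.76 ± 0.06 in 62A, 62B and 62C (limma adjusted p = 4.75e-05, 0.000504 and 1.15e-05). Over the strains it was −0.59 ± 0.13 (adjusted p = 0.0644).

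MET1 (YKR069W) had 8.76 and 8.86 on the reference arrays, 8.25 on 62A, 8.42 on each 62B array, and 8.02 on 62C. The evolved arrays did not overlap the reference, and 62C was lowest. Its changes were −0.56 ± 0.06, −0.38 ± 0.05 and −0.79 ± 0.06, each called, and −0.58 ± 0.12 over the strains (limma adjusted p = 0.061).

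MET22 (YOL064C), whose phosphatase removes phosphoadenosine phosphate, had 10.02 and 10.14 on the reference arrays, 9.65 on 62A, 9.78 and 9.83 on 62B, and 9.54 on 62C. All evolved arrays were below the reference, in the same order of strains as for MET1 and MET8. Its changes were −0.44 ± 0.07, −0.28 ± 0.05 and −0.54 ± 0.07, each called, and −0.42 ± 0.09 over the strains (adjusted p = 0.0619). The 62B call had an adjusted p = 0.05 without the first 62B array.

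The other 5 genes of this role encode the enzymes of the route. MET3, for ATP sulfurylase, was lower in each strain, with changes of −0.33 in 62A, −0.20 in 62B and −0.46 in 62C. MET5, for the beta subunit of sulfite reductase, was also lower in each, at −0.30, −0.26 and −0.42. MET10, for the alpha subunit, and MET16, for the reductase that forms sulfite, were lower in 62A (−0.22 and −0.29) and 62C (−0.36 and −0.47), with changes of −0.07 and −0.11 in 62B that were not called. MET14, for the kinase that acts after MET3, was the member of this role called in no strain, at −0.11, 0.06 and −0.19. Over the strains the changes were −0.33 ± 0.09 for MET3, −0.33 ± 0.07 for MET5, −0.22 ± 0.09 for MET10, −0.29 ± 0.11 for MET16 and −0.08 ± 0.09 for MET14, and none passed. Some single-strain calls were lost when 1 array was left out: those of MET3 in 62B without the second 62B array (limma adjusted p = 0.356) or the second reference array (0.0726), MET5 in 62B without the second 62B array (0.0527), and MET10 in 62A without either 62B array (0.0751).

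**Figure D3:**
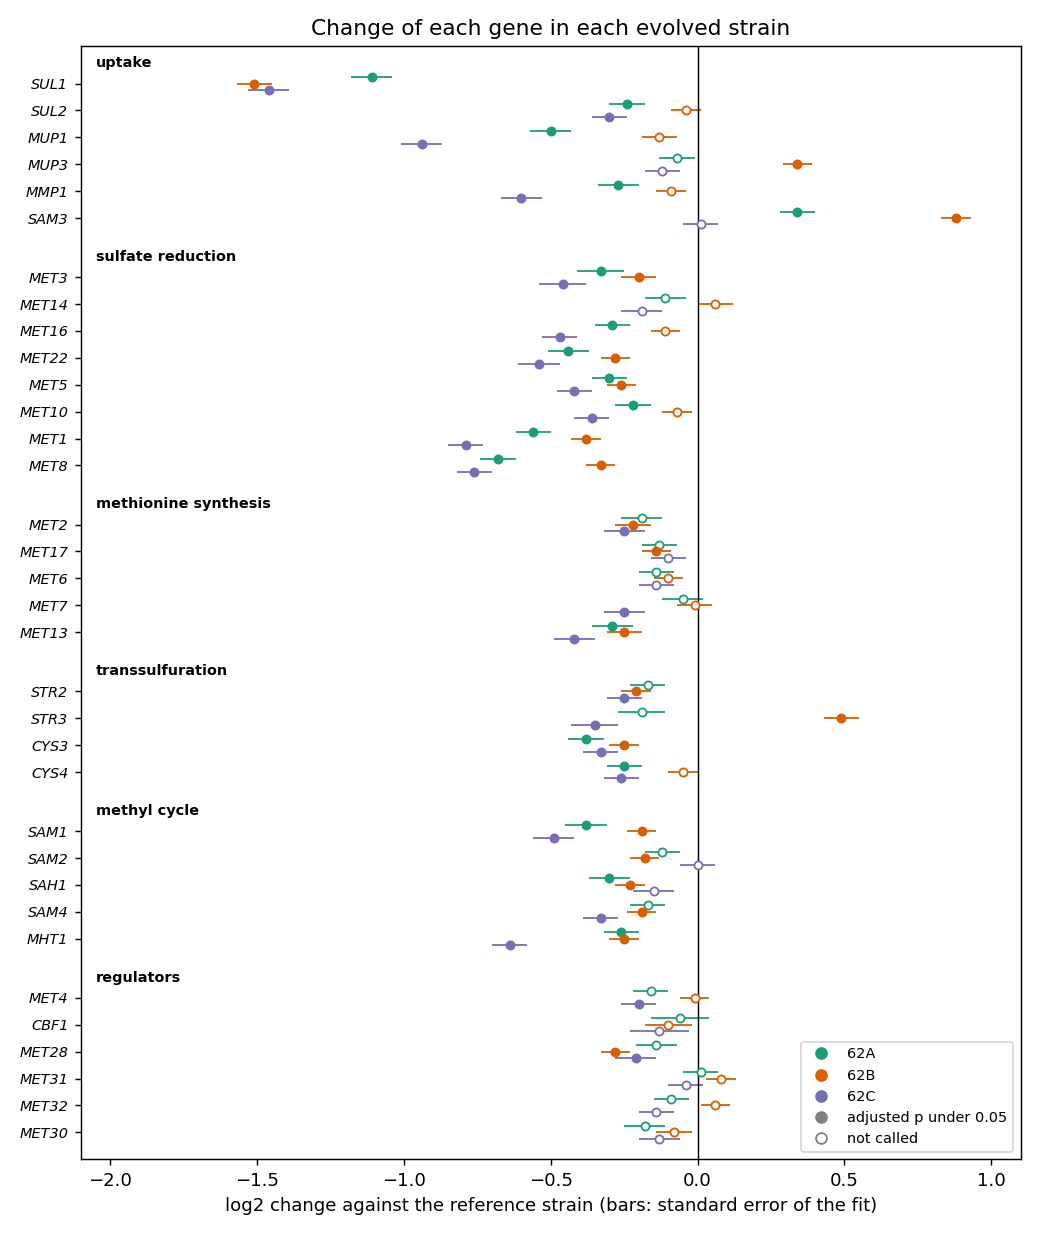
Log2 change of each of the 34 genes against the reference in 62A, 62B and 62C, grouped by role; points are estimates, bars are standard errors of the fit, filled points have a limma adjusted p under 0.05 and open points do not. SUL1 stands apart at −1.11 to −1.51, sulfate reduction genes lie between −0.79 and 0.06, and the points farthest to the right are SAM3, STR3 and MUP3 of 62B and SAM3 of 62A, at 0.34 to 0.88.

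Sulfide is then built into methionine. Of the 5 genes of methionine synthesis, 1 was lower in 62A, 3 in 62B and 3 in 62C. These are 20%, 60% and 60%, against 14.9%, 21.3% and 23.3% of all genes. MET13, for a methylenetetrahydrofolate reductase that supplies the methyl group, was the one lower in each strain (−0.29, −0.25 and −0.42, and −0.32 ± 0.08 over the strains). MET17, which captures sulfide into homocysteine, was lower in 62B (−0.14 ± 0.05), with −0.13 in 62A, −0.10 in 62C and −0.12 ± 0.05 over the strains. MET6, for methionine synthase, was called in no strain and had a change of −0.12 ± 0.05 over them. MET2, which makes O-acetylhomoserine, was lower in 62B (−0.22) and 62C (−0.25), with −0.22 ± 0.06 over the strains. MET7, for folylpolyglutamate synthetase, was lower in 62C (−0.25), with −0.10 ± 0.09 over the strains. None of the 5 passed in the class test. Without either 62B array all calls of MET2, MET17 and MET7 were lost, as were those of MET13 in 62A and 62B, with limma adjusted p between 0.0533 and 0.288. The call of MET17 was also lost without the first reference array.

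Transsulfuration carries sulfur between homocysteine and cysteine. Of its 4 genes, 2 were lower in 62A, 2 lower and 1 higher in 62B, and 4 lower in 62C. Among all genes, 14.9%, 21.3% and 23.3% were lower in 62A, 62B and 62C, and 20.1% were higher in 62B. STR3 (YGL184C) encodes cystathionine beta-lyase, which acts in the direction of homocysteine. Its values were 7.63 and 7.76 on the reference arrays, 7.51 on 62A, 8.25 and 8.13 on 62B, and 7.35 on 62C. Both 62B arrays were above the reference and the other evolved arrays were below it. STR3 was higher in 62B (0.49 ± 0.06, 1.41-fold, limma adjusted p = 0.000272) and lower in 62C (−0.35 ± 0.08, adjusted p = 0.00564), with −0.19 ± 0.08 in 62A (adjusted p = 0.102) and −0.02 ± 0.25 over the strains. It was the 1 member called in opposite directions in 62B and 62C, and the share of all genes so called was not counted.

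STR2, for cystathionine gamma-synthase, which acts before STR3, was lower in 62B (−0.21) and 62C (−0.25), with −0.17 in 62A and −0.21 ± 0.06 over the strains. CYS3, for cystathionine gamma-lyase, which releases cysteine, was lower in each strain (−0.38, −0.25 and −0.33) and had a change of −0.32 ± 0.06 over them (limma adjusted p = 0.0524). CYS4, for cystathionine beta-synthase, was lower in 62A (−0.25) and 62C (−0.26), with −0.05 in 62B and −0.19 ± 0.08 over the strains. The 62B call of STR2 and the 62A call of CYS4 were lost without either 62B array (limma adjusted p between 0.0616 and 0.104).

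In the methyl cycle, 3 of 5 genes were lower in 62A, 5 in 62B and 3 in 62C. These are 60%, 100% and 60%, against 14.9%, 21.3% and 23.3% of all genes. SAM1 and SAM2 encode the S-adenosylmethionine synthetases, which are near copies of each other, although neither probe set is of the kind marked as able to hybridise to related genes. SAM1 was lower in each strain, at −0.38, −0.19 and −0.49, with −0.35 ± 0.10 over the strains. SAM2 was lower in 62B (−0.18), with −0.12 in 62A, −0.00 in 62C and −0.10 ± 0.07 over the strains. SAH1, whose product hydrolyses S-adenosylhomocysteine, was lower in 62A (−0.30) and 62B (−0.23), with −0.15 in 62C and −0.23 ± 0.07 over the strains. All 3 of these 62B calls were lost without either 62B array (limma adjusted p between 0.0593 and 0.166), that of SAM1 also without the second reference array and that of SAM2 without the first.

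MHT1 and SAM4 encode the homocysteine methyltransferases that use S-methylmethionine and S-adenosylmethionine. MHT1 (YLL062C) had 7.69 and 7.73 on the reference arrays, 7.45 on 62A, 7.41 and 7.51 on 62B, and 7.07 on 62C. Strain 62C was lowest, and 62A lay between the 62B arrays. It was lower in each strain (−0.26 ± 0.06, −0.25 ± 0.05 and −0.64 ± 0.06, limma adjusted p = 0.0183, 0.00508 and 7.8e-05), with −0.38 ± 0.13 over the strains. The 62B call on MHT1 was lost without the first 62B array (adjusted p = 0.0847). SAM4 was lower in 62B (−0.19) and 62C (−0.33), with −0.17 in 62A and −0.23 ± 0.07 over the strains, and its 62B call was lost without either 62B array (adjusted p = 0.096 and 0.117).

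Each methyltransferase gene lies next to its permease gene in the RefSeq R64 gene table, MHT1 beside MMP1 and SAM4 beside SAM3. In the first pair both genes had their lowest value on 62C, as did SAM4. The same held for 67.6% of members and 30.6% of all genes. In the second the neighbours went opposite ways in 62B, SAM3 at 0.88 ± 0.05 and SAM4 at −0.19 ± 0.05, the latter a call that needed both 62B arrays.

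The 6 regulator genes had a median change of −0.11 over the strains, and 0 were called lower in 62A, 1 in 62B (16.7%) and 2 in 62C (33.3%), against 14.9%, 21.3% and 23.3% of all genes. None was called higher. MET4, the activator, was lower in 62C (−0.20 ± 0.06, limma adjusted p = 0.0212), with −0.16 in 62A, −0.01 in 62B and −0.12 ± 0.07 over the strains. MET28, its cofactor, was lower in 62B (−0.28 ± 0.05) and 62C (−0.21 ± 0.07), with −0.14 in 62A and −0.21 ± 0.07 over the strains. The 62C calls of MET4 and MET28 were lost without either 62B array (limma adjusted p = 0.0658 and 0.0783), and that of MET28 also without the second reference array. The others were called in no strain. Over the strains MET30, for the F-box protein, had a change of −0.13 ± 0.06, and the DNA-binding cofactor genes CBF1, MET31 and MET32 had changes of −0.09 ± 0.09, 0.02 ± 0.06 and −0.06 ± 0.07. RNA levels bear on the amount of message only, and Met4 is known to be controlled largely through ubiquitination.

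The evolved strains were then compared with each other, within the same fit and without reference arrays in the contrast. The F test over 62A, 62B and 62C called 17 of 34 members, or 50%, against 28.8% of all genes. Set against the mean of 62A and 62C, 62B was higher for 18 members, or 52.9%, and lower for 1, against 20.3% and 13.8% of all genes. Without the first or the second 62B array the F test called 9 and 10 members, against 11.5% and 12.9% of all genes. In the same fits 8 and 10 members were higher, against 8.22% and 8.35% of all genes, and 0 were lower. For 24 members, or 70.6%, both 62B arrays lay above 62A and 62C, against 40.8% of all genes. The 62B arrays also had the highest 3' minus 5' control differences (2.01 and 2.05), and 62C the lowest (1.73), and the part of this in the difference was not tested.

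Those 18 members comprised 5 of 6 uptake genes, 7 of 8 sulfate reduction genes, 2 of 4 transsulfuration genes, 2 of 5 methyl cycle genes and 2 of 6 regulators, and 0 of 5 methionine synthesis genes. Of all genes, 20.3% were called higher in this contrast. The 4 largest of these 18 differences were those of STR3 (0.76 ± 0.06, 1.69-fold, limma adjusted p = 2.19e-05), SAM3 (0.70 ± 0.05, 1.63-fold), MUP1 (0.59 ± 0.06, 1.51-fold) and MUP3 (0.43 ± 0.05, 1.35-fold). MET8 followed at 0.39 ± 0.05 and MMP1 at 0.34 ± 0.05. The other 12 were between 0.17 and 0.29. With either 62B array left out, 7 of the 18 were called higher both times: MUP1, MUP3, MMP1, SAM3, MET1, MET8 and STR3. SUL1 was the member on the other side, lower in 62B than in the mean of 62A and 62C (−0.22 ± 0.06, limma adjusted p = 0.0155), and this call was lost without either 62B array (adjusted p = 0.0805 and 0.138).

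**Figure D4:**
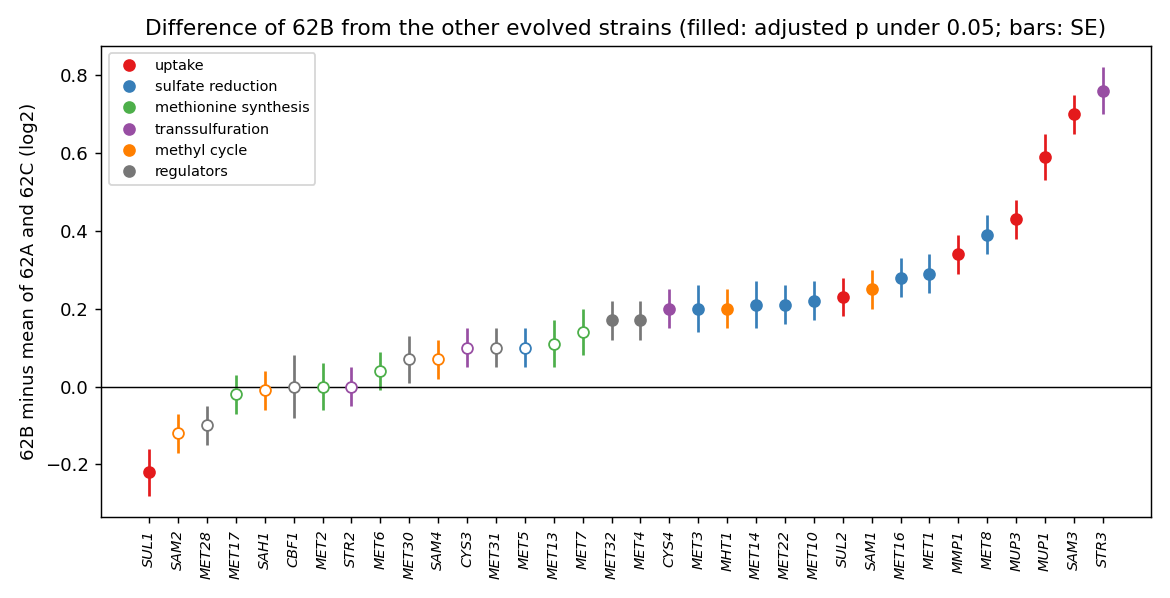
Log2 difference of 62B from the mean of 62A and 62C for each member, ordered from lowest to highest and coloured by role; bars are standard errors of the fit, and filled points have a limma adjusted p under 0.05. SUL1 is at the low end at −0.22, and uptake genes and STR3 take the high end, up to 0.76.

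Between 62C and 62A there were few calls. MUP1 (−0.44 ± 0.08, limma adjusted p = 0.0336) and MHT1 (−0.38 ± 0.07, adjusted p = 0.037) were lower in 62C than in 62A, 2 of 34 members or 5.88%, against 0.514% of all genes, and 0 members were higher, against 1.91%. At an unadjusted p under 0.05 limma had 9 of the 34 members lower and 0 higher, where 6.17% of all genes were lower and 8.22% higher. The spread for this contrast comes from the 62B and reference pairs. Both calls were lost without either 62B array, and without either reference array 6 members were called lower, against 3.06% of all genes. The 62C array held the lowest value of all 6 for 23 members, or 67.6%, against 30.6% of all genes.

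Of 42 related sulfur genes that are not members, 41 were measured. In the class test 6 were lower, or 14.6%, and 0 higher, against 2.79% and 1.96% of all genes. At an unadjusted p under 0.05, 14 of the 41 were lower and 2 higher, against 17.6% and 11.0% of all genes. Homoserine is the carbon skeleton of methionine, and its 3 genes were each lower in all 3 strains. The shares of all genes called lower were 14.9% in 62A, 21.3% in 62B and 23.3% in 62C. HOM2, for aspartate semialdehyde dehydrogenase (−0.46 ± 0.07, limma adjusted p = 0.0382) and HOM6, for homoserine dehydrogenase (−0.28 ± 0.05, adjusted p = 0.0424) passed over the strains, and HOM3, for aspartate kinase, had −0.51 ± 0.11 and changes of −0.57, −0.30 and −0.66 in 62A, 62B and 62C.

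Of 6 genes for one-carbon and folate supply, the methylenetetrahydrofolate dehydrogenase gene MTD1 (−0.57 ± 0.06) and the serine hydroxymethyltransferase gene SHM2 (−0.43 ± 0.07) passed over the strains, both lower. ADE3, a one-carbon enzyme gene, was lower in each strain (−0.51, −0.35 and −0.65). Its mitochondrial counterpart MIS1 was lower in 62A (−0.20) and 62C (−0.50) and had a change of 0.09 in 62B. In salvage and polyamine synthesis, 1 of 9 genes passed, SPE2, for S-adenosylmethionine decarboxylase, lower at −0.57 ± 0.06 (limma adjusted p = 0.0343). Of all genes, 2.79% were called lower over the strains.

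Other sources of sulfur were represented by 6 genes, and 1 passed over the strains, where 2.79% of all genes were called lower. BDS1, for a sulfatase, had 6.59 and 6.73 on the reference arrays, 6.25 on 62A, 6.03 and 6.05 on 62B, and 5.99 on 62C. All evolved arrays were below the reference, in the direction of SUL1, with a change of −0.57 ± 0.10 (limma adjusted p = 0.0426). Among the related genes 4 were called in opposite directions in different strains, and they are named after their values were seen. The share of all genes called in opposite directions was not counted. YCT1, a cysteine transporter gene, was higher in 62A (0.38 ± 0.06) and 62C (0.24 ± 0.06) and lower in 62B (−0.18 ± 0.05). The salvage gene ADI1 was lower in 62A (−0.39) and 62C (−0.47) and higher in 62B (0.16). SPE4, for spermine synthase, was higher in 62B (0.16) and lower in 62C (−0.20), and OPT1, for an oligopeptide and glutathione transporter, was higher in 62B (0.26) and lower in 62C (−0.28).

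The remaining lists held 8 glutathione genes, 5 thioredoxin and methionine sulfoxide reductase genes and 4 genes of the ubiquitin ligase core. Over the strains 0 of them were called, where 2.79% of all genes were lower and 1.96% higher. At an unadjusted limma p under 0.05 each list had 1 gene. It was higher in the thioredoxin and sulfoxide reductase list and lower in the other lists. At that p 17.6% of all genes were lower and 11.0% higher. MXR2, for a mitochondrial methionine sulfoxide reductase, was higher in 62B (0.62 ± 0.05) and 62C (0.20 ± 0.06), with 0.19 in 62A.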

How the data were processed

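The deposited values are on the log2 scale. The submitters' processing notes name RMA and affy as the authors' tools. The sources used here give no tool version, no genome build and no list of arrays normalized together. The deposited table held 10928 probe sets and 0 columns were left unused. Of these, 5498 matched 1 S. cerevisiae gene through the platform annotation and the RefSeq R64 gene table, and 1746 belonged to another species and gave the background, their 95th percentile. For 47 genes with several probe sets, none of them a member, the highest mean was kept, leaving 5449 genes. No value was rescaled.

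Fits used limma 3.58.1 in R 4.3.3 (lmFit, eBayes), with 3 residual degrees of freedom for the class and 2 for single strains. They were also run on simulated arrays with the same change in every evolved strain. That simulation held no spread between strains, so it does not bear on how the class test handles such spread. Errors are standard errors of these fits. The number of arrays limits the precision.

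Members, roles and related lists were chosen with earlier results of these data known. Values on every array are given for members called in the class, called in a strain with a log2 change of at least 0.5, or called in opposite directions. Related genes are named where called in the class, or in a strain with a log2 change of at least 0.5; 4 others, called in opposite directions, were added after their values were seen. Promoter motifs and sequences were not analysed here. Alternatives changed the normalization, background filter, probe set rule, variance trend, replicate block and arrays used.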

Additional observations from a re-analysis of the deposited data

Results flagged for a closer look

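The following changes against the reference differed between 62B and the mean of 62A and 62C by the limma contrast, with an adjusted p under 0.05 over all genes. In uptake, the differences were −0.22 for SUL1, 0.23 for SUL2, 0.59 for MUP1, 0.43 for MUP3, 0.34 for MMP1 and 0.70 for SAM3 on the log2 scale. In sulfate reduction they were 0.20 for MET3, 0.21 for MET14, 0.28 for MET16, 0.21 for MET22, 0.22 for MET10, 0.29 for MET1 and 0.39 for MET8. Elsewhere they were 0.76 for STR3, 0.20 for CYS4, 0.25 for SAM1, 0.20 for MHT1, 0.17 for MET4 and 0.17 for MET32. Between 62C and 62A the contrast passed for MUP1 (−0.44) and MHT1 (−0.38).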

How the results depend on the processing

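The count of members lower in the class was 1, became 5 with median centring, and ranged from 0 without either reference array to 17 without 62B when arrays or strains were left out. With strain as a random block it was 1, and SUL1 was that member. Leaving out single arrays moved the members lower in 62B from 17 to between 7 and 18. It moved those higher in 62B than in 62A and 62C from 18 to between 8 and 19, those lower from 1 to between 0 and 2, and the F test from 17 to between 9 and 21. Members lower in 62C than in 62A numbered 2. They were 5 with quantile normalization, 5 with median centring, 4 with genes above background only, 4 with an intensity trend and 5 with the replicate block, and 0 to 6 when arrays were left out. Counts over all genes moved too. For the class, 152 genes were lower and 107 higher, against 809 and 509 without 62B, 40 and 59 without 62C, 3 and 3 without 62A, 0 and 0 without either reference array, and 11 and 10 with strain as a random block. In the full fits 811 genes were lower in 62A, 1161 lower and 1094 higher in 62B, and 1571 passed the F test. Each of these counts moved both down and up when single arrays were left out. For 62B against 62A and 62C, 1104 genes were higher and 751 lower. Both counts fell without a 62B array and rose without a reference array. For 62C against 62A, 28 lower and 104 higher genes became 74 and 160 with quantile normalization, 52 and 169 with median centring and 73 and 199 with the replicate block, and ranged from 7 to 167 and 12 to 265 without single arrays. The cause of these shifts was not tested. Replicate numbers did not pair the arrays (r = −0.06 between the deviations of the 62B and reference pairs), and the replicate block left 1 member lower in the class, 18 in 62A, 17 in 62B and 24 in 62C. That class fit took each array as a sample, so 62B counted as 2. The block placed 62A and 62C, whose labels carry no replicate number, with the first arrays of 62B and the reference. No other count of members moved by over 1.5 times. No called change of a member turned direction under the alternatives run. With 1 array each, 62A and 62C have no spread of their own.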
